A study of Vigna unguiculata subsp. sesquipedalis with 24 samples.

Results

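The transcripts described here, measured on 24 arrays, belong to abscisic acid (ABA) signalling in asparagus bean (Vigna unguiculata subsp. sesquipedalis): the protein phosphatase ABI1 (UP12_8966), the protein phosphatase PP2CA (UP12_1741) and 2 unigenes annotated as the transcription factor ABF2 (UP12_26761 and UP12_12562). They are 4 of the 29471 unigenes (transcript sequences assembled from cDNA reads) on a custom 1-colour NimbleGen array. They were chosen by name as phosphatases and ABF2 factors of ABA signalling. The names come from the study's tables of unigenes changed by drought on these same arrays. ABI1 was listed there for both organs of both lines, and the other 3 unigenes for B128 leaves, so a rise in those comparisons is not independent evidence. The same holds for differences between lines or organs that include a comparison through which a unigene was listed. All 4 were listed for a drought change, so the shares of all unigenes given below are a description and not a test of the 4.

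ABA is the hormone that accumulates in plants short of water. It is bound by receptors of the PYR/PYL family, and the occupied receptor inhibits protein phosphatases 2C of clade A, to which ABI1 and PP2CA belong in Arabidopsis. These phosphatases otherwise hold the SnRK2 kinases inactive. Released SnRK2 kinases phosphorylate ABF factors, bZIP proteins that bind ABA-responsive promoter elements, and the same kinases act on the ion channels that close stomata. In Arabidopsis, transcripts of clade A phosphatases and of ABF2 are themselves induced by ABA, so that the negative regulators of the pathway are made while it is active.

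The study grew 2 landrace lines, B47 (labelled anisohydric like) and B128 (labelled isohydric like). These terms name plants that let their leaf water status fall in drought and plants that hold it. Seedlings of both were 16 days old and well irrigated when irrigation was withheld from the drought-stressed group, while well-watered plants served as the control. The side leaflets of the first trifoliate leaf and the roots were taken on day 15 of the treatment, and material of the 2 plants of a pot was mixed. Line, organ and treatment give 8 groups with 3 arrays each, which the labels call biological replicates. Each line stands for itself alone, and the study's methods state that drought-stressed leaves of B128 had lost more water at harvest than those of B47, which runs against these labels, and line and depth of stress cannot be told apart.

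The deposited values are normalized intensities on a linear scale, with array medians of 1506 to 1581. Across unigenes, replicate arrays correlated with a Pearson's r of 0.960 to 0.994. Of the drought-stressed root arrays, all 6 carry both organs in their labels, and they were taken as roots. Of 16 leaf markers (chlorophyll a/b-binding proteins and the Rubisco small subunit), 13 to 15 were higher in leaf than in root in each line and treatment. Fe(2+) transport protein 1, a root epidermis gene, stood at 4880 to 15204 in well-watered roots, at 156 to 437 in all leaf groups and at 15.0 to 22.6 in drought-stressed roots, so this root marker was near the lowest intensities of the series (4.52) on the 6 arrays of drought-stressed roots. Across all unigenes, however, those 6 arrays were closer to the well-watered roots of their line (mean r of 0.886 to 0.902) than to its well-watered leaves (0.726 to 0.758).

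Under drought, transcripts of both phosphatases and of both ABF2 unigenes stood higher than in well-watered plants in every line and organ. The 3 drought-stressed arrays lay above the 3 well-watered arrays for 4 of the 4 unigenes in each of the 4 comparisons, as did 33.4% of all unigenes in the leaves of B47 and 27% in those of B128, and 34% in the roots of B47 and 30.8% in those of B128. A unigene was taken as called where its fold change reached 2 and its false discovery rate (FDR) did not exceed 0.01 in limma's moderated test, fitted over all 24 arrays with Benjamini-Hochberg adjustment over the 29471 unigenes. All 4 unigenes were called in B47 leaves, against 7.86% of all unigenes, and all 4 in B128 leaves, against 6.31%. In B47 roots 4 were called, against 10.9%, and in B128 roots 3, against 10.5%. ABI1, PP2CA and UP12_26761 were called in all 4 comparisons, as were 1.25% of all unigenes. These are bulk samples, in which more cells of a type and more RNA per cell cannot be told apart.

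**Figure D1:**
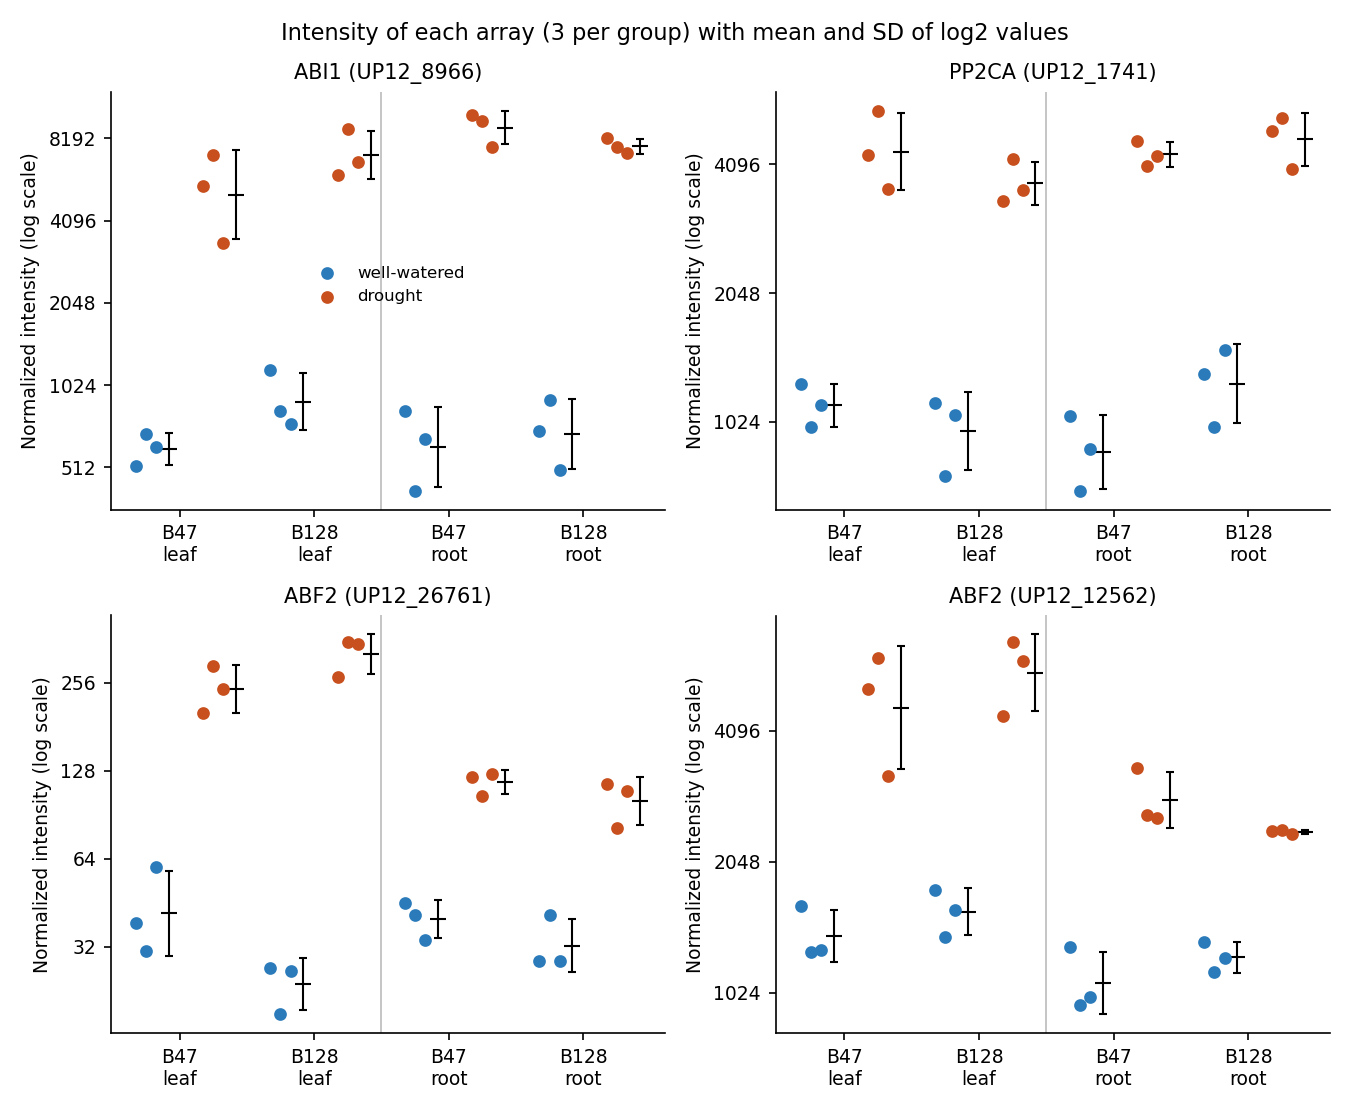
Normalized intensity (log scale) of ABI1, PP2CA and the 2 ABF2 unigenes on each of the 24 arrays, by line and organ, with well-watered arrays in blue and drought-stressed arrays in orange (3 points per group). Black marks give the mean and SD of the log2 values; in every panel the drought-stressed points of a line and organ lie above its well-watered points.

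ABI1 is named after Arabidopsis mutants insensitive to ABA. In well-watered B47 leaves its intensity was 519, 679 and 607 on the 3 arrays. In drought-stressed B47 leaves it was 5479, 7146 and 3395. The lowest drought-stressed array thus stood far above the highest control array, although the spread of these 3 arrays, with replicate 3 lowest, was the widest of any ABI1 group (SD of 0.54 on the log2 scale, n = 3). The log2 change was 3.09 ± 0.28 (SE), or 8.53-fold, with an adjusted p of 7.4e-08 in limma's test.

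In B128 leaves ABI1 stood at 1168, 821 and 737 in well-watered plants. Drought-stressed B128 leaves gave 6003, 8875 and 6725. No control array of this line came near a drought-stressed one. ABI1 rose there by 3.00 ± 0.28 on the log2 scale, or 7.97-fold (limma, adjusted p = 1.2e-07).

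ABI1 in well-watered B47 roots was 822, 421 and 651. In drought-stressed B47 roots it was 9934, 9496 and 7645. Replicates 1 and 2 were the highest ABI1 readings of the series, and the change of 3.88 ± 0.28 was the largest of the 4, at 14.7-fold (limma, adjusted p = 2.3e-09). Only 0.573% of all unigenes rose more in that comparison.

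In well-watered B128 roots ABI1 read 699, 900.4 and 499.7. In drought-stressed B128 roots it read 8187, 7597 and 7219, with an SD of 0.09 on the log2 scale. The drought-stressed arrays of this group were close together, and its control arrays were more widely spread. The rise was 3.49 ± 0.28, or 11.3-fold (limma, adjusted p = 1.0e-08).

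PP2CA is a close relative of ABI1, which in Arabidopsis also restrains the guard cell anion channel and the SnRK2 kinases. Its intensity in well-watered B47 leaves was 1252, 996 and 1123. In drought-stressed B47 leaves it was 4302, 5453 and 3593. The groups were well apart, and the order of the 3 drought-stressed arrays was the same as for ABI1. The log2 change was 1.97 ± 0.20, or 3.92-fold (limma, adjusted p = 2.8e-07).

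PP2CA in B128 leaves was 1135, 766 and 1059.5 without drought. With drought it was 3367, 4203 and 3569. These groups were again separate. The change of 1.93 ± 0.20, or 3.80-fold (limma, adjusted p = 3.7e-07), was close to that of B47 leaves.

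In B47 roots PP2CA had log2 intensities of 10.05, 9.47 and 9.79 without drought and of 12.18, 11.98 and 12.06 with it (4049 to 4641 on the linear scale), a rise of 2.31 ± 0.20 or 4.96-fold (limma, adjusted p = 2.2e-08). In B128 roots its intensity went from 1326, 997 and 1504 to 4885, 5249 and 3999.9, a rise of 1.90 ± 0.20 or 3.72-fold (limma, adjusted p = 3.3e-07). Well-watered B128 roots had the highest mean of the control groups for this unigene. PP2CA therefore reached much the same intensity under drought in both organs of both lines, between 3367 and 5453 on 12 arrays.

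ABF2, also called AREB1, is a bZIP factor that SnRK2 kinases activate and that switches on ABA-responsive genes during water deficit in Arabidopsis. The unigene UP12_26761 was dim, between the 4.2nd and the 27.8th percentile of the unigenes on its array, and without detection calls its lowest readings could not be set against background. It read 38.7, 31.0 and 59.7 in well-watered B47 leaves. In drought-stressed B47 leaves it read 201, 293 and 244, a rise of 2.55 ± 0.23 or 5.85-fold (limma, adjusted p = 8.2e-08). The lowest drought-stressed reading was above every control reading of both lines and organs.

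In B128 leaves UP12_26761 went from 27.1, 18.8 and 26.4 to 268, 353 and 348. Its controls were the lowest arrays of the series, and its drought-stressed group had the highest mean. The change of 3.75 ± 0.23, or 13.5-fold (limma, adjusted p = 6.3e-10), was exceeded by 0.597% of all unigenes. Adding 50 to every intensity before the log2 lowered this change to 2.32 and that of B47 leaves to 1.67, and both remained called.

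UP12_26761 in B47 roots was 45.1, 41.1 and 33.8 without drought and 122, 105 and 125 with it. That rise was 1.56 ± 0.23, or 2.94-fold (limma, adjusted p = 2.0e-05). In B128 roots it was 28.5, 41.2 and 28.6 without drought and 116, 81.3 and 109 with it, a rise of 1.64 ± 0.23 or 3.13-fold (limma, adjusted p = 1.1e-05). Every drought-stressed root array was above every well-watered root array and below every drought-stressed leaf array. With 50 added to the intensities the root changes were 0.89 and 0.87, under the fold change threshold.

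The second ABF2 unigene, UP12_12562, matched another entry of the same Arabidopsis protein. In well-watered B47 leaves it stood at 1617, 1272 and 1285, and in drought-stressed ones at 5122, 6009 and 3217, a rise of 1.74 ± 0.20 or 3.35-fold (limma, adjusted p = 1.6e-06). In B128 leaves it stood at 1767, 1378 and 1590 without drought and at 4430, 6552 and 5935 with it, a rise of 1.83 ± 0.20 or 3.54-fold (limma, adjusted p = 9.4e-07). Replicate 3 of drought-stressed B47 leaves was the lowest array of its group here, as it was for ABI1 and PP2CA.

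In roots the estimated responses of UP12_12562 were smaller, but the difference between the organs, tested below, was called in neither line. B47 roots gave 1302, 961 and 1000.3 without drought and 3360, 2623 and 2588 with it, a rise of 1.40 ± 0.20 or 2.63-fold (limma, adjusted p = 1.4e-05). B128 roots gave 1338, 1139.7 and 1231 without drought and 2409, 2424 and 2373 with it. Although these groups were apart, the difference of 0.96 ± 0.20 was a 1.95-fold change, under the fold change threshold, with an adjusted p of 6.1e-04 in limma's test, and it was the one of the 16 that was not called. Without replicate 1 of well-watered B128 roots it was 1.02 and was called. No other fit that left out 1 array called it, and neither did any of the 15 other settings, which gave 0.56 to 0.97.

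**Figure D2:**
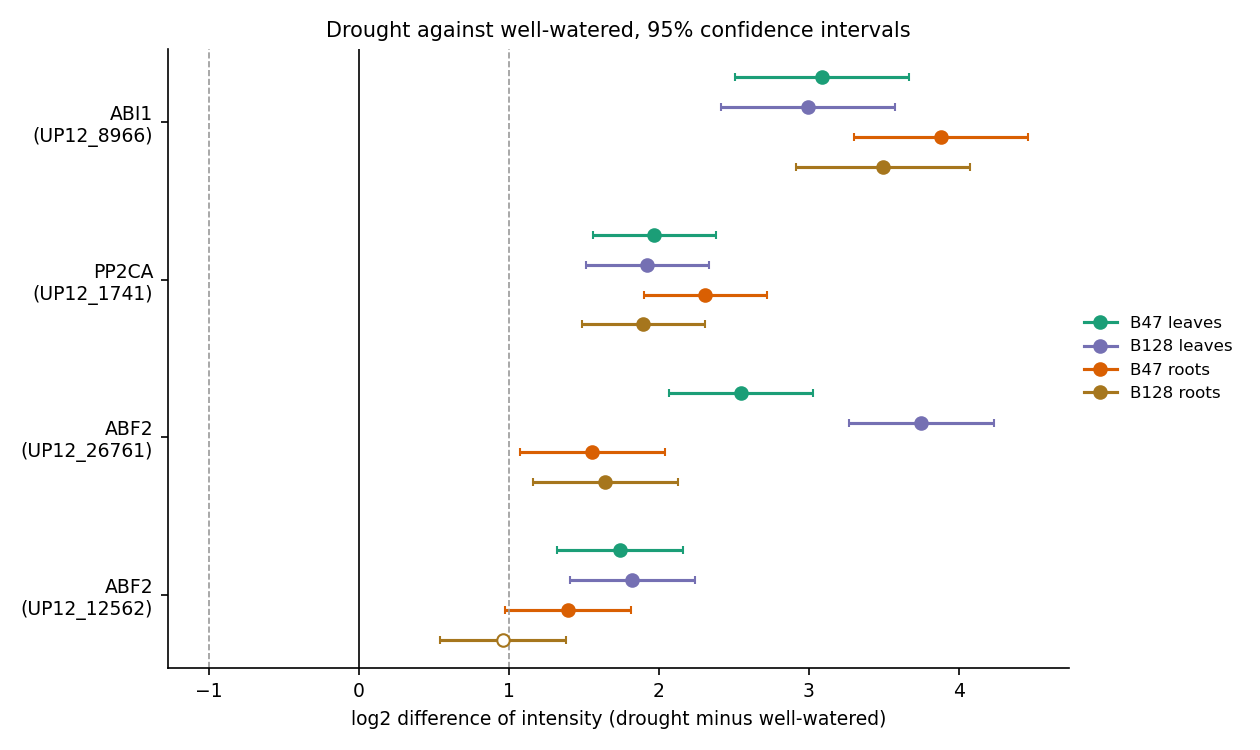
Log2 difference of intensity between drought-stressed and well-watered plants for each unigene in each line and organ (points, limma estimate; bars, 95% confidence interval). Dashed lines mark a fold change of 2 in either direction and filled points passed both thresholds; the open point is UP12_12562 in B128 roots, at 0.96.

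Leaf markers moved with drought in the leaf samples. The summed intensity of the 16 leaf markers was 122336 to 171198 in well-watered leaves and 15528 to 26458 in drought-stressed leaves, and 9 of 16 fell in B47 leaves and 15 of 16 in B128 leaves. In roots the sum was 9627 to 20043 in well-watered and 5818 to 8818 in drought-stressed arrays, and 2 of 16 fell in B47 and 0 in B128. One of the 16 rose in each of the 4 comparisons, in leaves the Rubisco small subunit RBCS1A (UP12_16180), which was lower in leaf than in root in well-watered plants. These marker names also come from the study's tables of unigenes changed by drought. Their part in the rises of the 4 unigenes was not tested.

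Whether the 2 lines differed in their response was tested as the interaction of line and drought, with the change in B47 subtracted from that in B128. None of the 4 unigenes was called in leaves, against 2.42% of all unigenes in either direction, and none in roots, against 0.319%. At an unadjusted p under 0.05 there was 1 in leaves and 0 in roots. The share of all unigenes at that threshold was not counted, here or in the comparisons below, so these counts have no background. In leaves the difference was -0.10 for ABI1 (95% confidence interval -0.92 to 0.72), -0.04 for PP2CA (-0.62 to 0.53) and 0.08 for UP12_12562 (-0.51 to 0.68). These 3 intervals hold 0 and reach to between 0.62 and 0.92 on their far side. UP12_26761 responded more in B128 leaves, by 1.20 (0.52 to 1.88), with an adjusted p of 0.032 in limma's test, which misses the FDR threshold of 0.01 and meets one of 0.05. It was called with array weights, at 1.48. It was 0.66 with 50 added to the intensities and 0.94 to 1.41 with single arrays left out, with no call.

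For UP12_26761, B128 was below B47 in well-watered leaves, by a log2 difference of -0.81 ± 0.23 (limma, adjusted p = 0.019), with no overlap between the arrays. In drought-stressed leaves B128 stood 0.40 ± 0.23 above B47 (limma, adjusted p = 0.41), and the arrays overlapped. Leaving out single arrays moved the first difference between -1.02, which was called (replicate 2 of the B47 controls left out), and -0.54, and with 50 added to the intensities it was -0.32 (limma, adjusted p = 0.11). In limma's test on all arrays 0 of the 4 unigenes were called between the lines in any organ and treatment, while of all unigenes 6.46% were called in well-watered leaves, 3.18% in drought-stressed leaves, 2.3% in well-watered roots and 2.09% in drought-stressed roots. At an unadjusted p under 0.05, with no background counted, there was 1 of the 4 in well-watered leaves and 0 in drought-stressed leaves. In roots there was 1 in well-watered and 0 in drought-stressed plants. ABI1 in well-watered leaves, where the lines also did not overlap, differed by 0.57 (95% confidence interval -0.01 to 1.15). UP12_12562 in drought-stressed roots, again without overlap, differed by -0.24 (-0.66 to 0.18). The share of all unigenes without overlap was counted only for drought against well-watered, so it is not known for the lines or the organs. PP2CA in well-watered roots differed by 0.53 (0.12 to 0.94), with an adjusted p of 0.15 in limma's test.

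In roots the line by drought differences were -0.39 for ABI1 (-1.21 to 0.43), -0.41 for PP2CA (-0.99 to 0.17) and -0.43 for UP12_12562 (-1.03 to 0.16). For UP12_26761 the difference was 0.09 (-0.59 to 0.77). All 4 intervals hold 0, so no difference between the lines was detectable in roots with 3 arrays per group.

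Leaf and root came from the same plants, but the sources used here do not say which leaf and root arrays share a pot, so the organs were compared without pairing. They were compared in the same way, as the leaf response minus the root response in each line. Of the 4 unigenes 1 was called, in B128. For UP12_26761 in B128 the leaf response exceeded the root response by 2.11 (95% confidence interval 1.43 to 2.79), a 4.31-fold difference that was called (limma, adjusted p = 7.8e-05), as 7.92% of all unigenes were in that direction. Its difference in B47 was 0.99 (0.31 to 1.67), just under a fold change of 2 and with an adjusted p of 0.025 in limma's test. UP12_12562 had a difference of 0.86 (0.27 to 1.46) in B128, with an adjusted p of 0.026, and of 0.35 (-0.25 to 0.94) in B47, with an adjusted p of 0.37. None of the 4 was called in B47, against 16.2% of all unigenes in either direction, and 1 had an unadjusted p under 0.05.

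The difference for ABI1 was -0.79 (-1.61 to 0.03) in B47 and -0.50 (-1.32 to 0.32) in B128, and it was not called in either. After scaling the arrays to equal yeast control entries it was -0.15 in B47 and -0.05 in B128. For PP2CA it was -0.34 (-0.92 to 0.24) in B47, and 0.03 (-0.55 to 0.61) in B128, and with that scaling it was 0.30 and 0.48. The interaction of line, organ and drought, which asks whether the organ difference itself differs between B128 and B47, was called for 0 of the 4 unigenes in limma's test, against 1.28% of all unigenes, with 1 at an unadjusted p under 0.05. It was 1.12 (0.15 to 2.08) for UP12_26761, with an adjusted p of 0.23, and 0.68 with 50 added to the intensities. The organ difference of UP12_26761 in B47 ranged from 0.55 with array weights, not called, to 1.63 with equal yeast control entries, called. Leaving out replicate 3 of the well-watered leaves gave 1.25, which was also called.

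**Figure D3:**
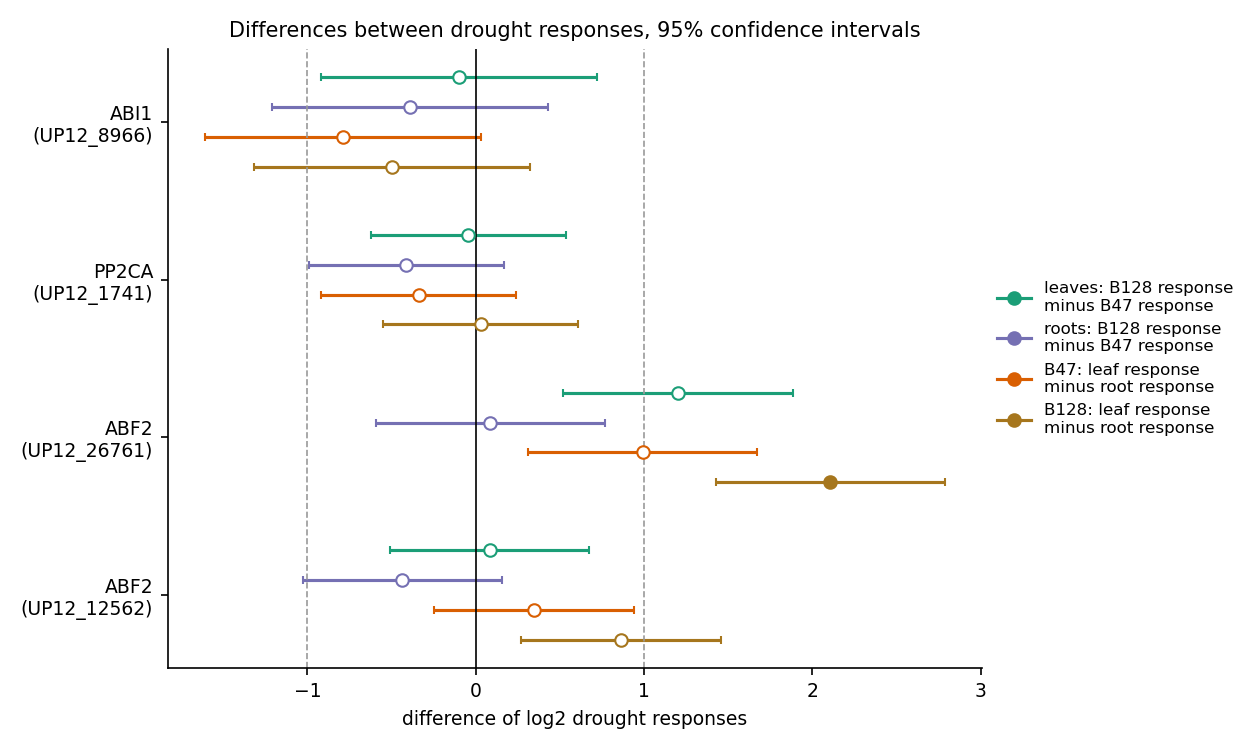
Differences between drought responses on the log2 scale for each unigene: B128 minus B47 in leaves and in roots, and leaf minus root in B47 and in B128 (points, limma estimate; bars, 95% confidence interval). The single filled point, which passed both thresholds, is UP12_26761 in B128 at 2.11; dashed lines mark a fold change of 2.

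The direct comparison of leaf with root gives the organ difference within each treatment. In well-watered plants 0 of the 4 unigenes were called between the organs in limma's test in either line, against 36% of all unigenes in B47 and 38.3% in B128, and 0 had an unadjusted p under 0.05. In well-watered B128 plants UP12_26761 was lower in leaf by -0.44 ± 0.23 (confidence interval -0.92 to 0.04), with no overlap between the arrays. The organ difference of 2.11 for UP12_26761 in B128 therefore did not come from the drought-stressed arrays alone. UP12_12562 was higher in leaf in well-watered B128 plants, by 0.35 ± 0.20 (-0.07 to 0.77), also with no overlap. Both intervals hold 0. In drought-stressed B47 plants UP12_26761 was higher in leaf by 1.06 ± 0.23 (limma, adjusted p = 5.5e-04), and 1 of the 4 was called where 17.6% of all unigenes were higher in leaf. In drought-stressed B128 plants UP12_26761 was higher in leaf by 1.67 ± 0.23 (limma, adjusted p = 3.7e-06) and UP12_12562 by 1.21 ± 0.20 (limma, adjusted p = 3.2e-05), so that 2 were called where 17.5% of all unigenes were. Shares of this size leave a count of 1 or 2 in 4 near the background. The B47 difference of UP12_26761 was 0.92 with replicate 2 of the drought-stressed leaves left out and 0.98 with replicate 2 of the drought-stressed roots left out, and neither was called. UP12_12562 in drought-stressed B47 plants was 0.71 ± 0.20 higher in leaf, with a confidence interval of 0.29 to 1.13. ABI1 was lower in leaf than in root in drought-stressed B47 plants by a log2 difference of -0.81 ± 0.28 (limma, adjusted p = 0.016), with no overlap. That value was -0.12 after scaling to equal yeast control entries, and leaving out single arrays gave -1.06, which was called (without replicate 2 of drought-stressed B47 leaves), to -0.52.

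Ranked by the mean of their log2 values, the 8 groups fell into 2 blocks for each unigene, with the 4 drought-stressed groups on top. For ABI1 the order within the upper block was B47 roots (13.13 ± 0.20, SD, n = 3), B128 roots (12.90 ± 0.09), B128 leaves (12.79 ± 0.29) and B47 leaves (12.32 ± 0.54). No neighbours in it were called (limma, adjusted p of 0.80, 0.75 and 0.41 down that order). The step down to the highest control group, well-watered B128 leaves at 9.80 ± 0.35, was 2.52 (limma, adjusted p = 8.9e-07). For PP2CA the upper block ran from 12.19 ± 0.20 in B128 roots to 11.85 ± 0.17 in B128 leaves, and the step to the next group, well-watered B128 roots at 10.30 ± 0.30, was 1.56 (limma, adjusted p = 8.3e-07). Within the upper and the lower block of PP2CA no neighbours were called.

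The ABF2 unigenes shared an order among the drought-stressed groups, with both leaf groups above both root groups. Their control groups did not share an order. UP12_26761 was highest in drought-stressed B128 leaves (8.32 ± 0.22), followed by B47 leaves (7.93 ± 0.27), and then came B47 roots (6.87 ± 0.14) and B128 roots (6.66 ± 0.27). The lines were not called apart within either organ, while the step from B47 leaves to B47 roots was the difference of 1.06 given above, and the step from drought-stressed B128 roots to the highest control group was 1.28 (limma, adjusted p = 6.6e-05). Under drought UP12_12562 ran in the same order, from 12.44 ± 0.29 in B128 leaves through 12.18 ± 0.47 in B47 leaves and 11.47 ± 0.21 in B47 roots to 11.23 ± 0.02 in B128 roots. Its step from B47 leaves to B47 roots was 0.71, under a fold change of 2 and not called, and these arrays overlapped. Its step to the highest control group, well-watered B128 leaves at 10.62 ± 0.18, was 0.61 (limma, adjusted p = 0.011), a smaller step than a fold change of 2.

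Over the 24 arrays, Pearson's r between the log2 values of the 2 ABF2 unigenes was 0.918, and it was 0.934 over the 12 leaf arrays and 0.921 over the 12 root arrays. The 2 phosphatases had an r of 0.954 over the 24 arrays. Between a phosphatase and an ABF2 unigene r was 0.836 to 0.849 over all arrays, but 0.929 to 0.982 over the leaf arrays and 0.886 to 0.971 over the root arrays. The arrays of a group share line, organ and treatment, so these values describe mostly the drought contrast and carry no test. Probes of the 2 ABF2 unigenes were not analysed here, and signal shared between like transcripts could not be told apart.

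**Figure D4:**
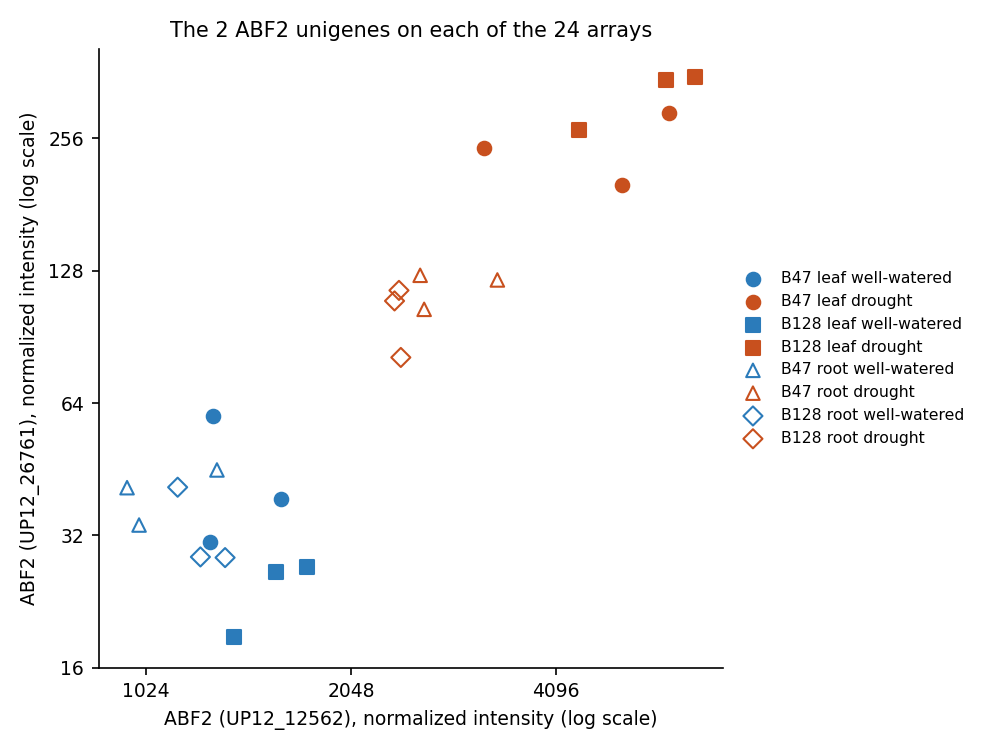
Normalized intensity of the ABF2 unigene UP12_12562 (horizontal, log scale) against that of UP12_26761 (vertical, log scale) on each of the 24 arrays; filled symbols are leaves, open symbols roots, blue well-watered and orange drought-stressed. On the vertical axis the arrays form 3 clouds, with all well-watered arrays lowest, drought-stressed roots between and drought-stressed leaves highest (Pearson's r = 0.918 over 24 arrays). On the horizontal axis well-watered arrays are also lowest, but the drought-stressed organs overlap, with 1 B47 root array at 3360 and 1 B47 leaf array at 3217.

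For each unigene the 3 unigenes with the highest r over the 24 arrays were looked up, and 7 of these 12 had an annotation. Those of ABI1 were an E3 ubiquitin ligase annotated as DRIP1 (UP12_14537, r = 0.983), a CCAAT-binding transcription factor B subunit (UP12_5762, r = 0.982) and UP12_10574 (r = 0.981), for which no annotation was used here. DRIP1 tags the drought factor DREB2A for degradation in Arabidopsis. UP12_14537 rose by 1.66 in B47 leaves and 1.73 in B128 leaves, and in roots by 2.28 and 2.02. UP12_5762 rose by 2.87, 2.80, 4.30 and 3.78 in the same order.

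The unigene most like PP2CA was another clade A phosphatase, annotated as AIP1 (UP12_14919, r = 0.978), followed by a dehydrogenase (UP12_24580, r = 0.963) and UP12_20518 (r = 0.963). UP12_26761 was most like a small heat shock protein, HSP21 (UP12_11602, r = 0.967), the late embryogenesis abundant protein LEA4-5 (UP12_6513, r = 0.955) and an unknown protein (UP12_22579, r = 0.954). HSP21 is a chaperone of the chloroplast, and LEA4-5 protects proteins during drying. Both rose more in leaves than UP12_26761 itself: UP12_11602 by 6.07 in B47 and 7.03 in B128, and UP12_6513 by 4.95 and 6.14. The unigenes most like UP12_12562 (UP12_20616, UP12_18260 and UP12_590, r = 0.955 to 0.980) had no annotation used here.

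The rest of the pathway was followed in lists taken from the same tables, whose unigenes were chosen because drought changed them on these arrays, so their counts and directions are not independent evidence. Of all unigenes 8.18% fell in the leaves of B47 and 8.35% in those of B128, and 11.6% fell in the roots of B47 and 11.2% in those of B128. Upstream stand the enzymes that form ABA. NCED cleaves carotenoids in the limiting step of ABA synthesis, and its 3 unigenes (NCED9 and 2 of NCED5) rose in all 4 comparisons. NCED5 (UP12_25297) changed most, by 2.27 ± 0.40, 2.82 ± 0.40, 3.22 ± 0.40 and 2.83 ± 0.40 (leaves of B47 and of B128, then roots of B47 and of B128). The 2 unigenes of the ABA importer NPF4.6 fell in the leaves of both lines and were called in neither root comparison; UP12_29547 fell by 2.73 ± 0.25 in B47 leaves and by 1.91 ± 0.25 in B128 leaves. Over the 5 unigenes the median change was 1.34, 2.60, 2.61 and 1.90 in the same order, where the median of all unigenes was 0.08, 0.05, 0.11 and 0.11.

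Receptor transcripts mostly fell. Of 8 receptor unigenes, 6 fell in the leaves of each line and 7 in the roots of each line, and 2 rose, both in B128 leaves. The medians were -3.97, -3.93, -3.19 and -3.18. The unigene with the lowest mean change over the 4 comparisons was PYL5 (UP12_29616), which in B47 roots fell from a mean log2 intensity of 13.58 ± 0.11 to 5.68 ± 0.49 (SD, n = 3), a change of -7.89 ± 0.34 (limma, adjusted p = 2.6e-12). Its change in the leaves was -6.12 in B47 and -5.11 in B128, and in B128 roots it was -8.02. PYR1 (UP12_10118) had the highest mean change and rose in B128 leaves by 1.09 ± 0.14, while its values were 0.85 in B47 leaves and 0.13 in both roots, none of them called. The list holds 3 unigenes of PYL5 and 2 of PYL1, which may share sequence.

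The other clade A phosphatases were called in the direction of ABI1 and PP2CA, 3 of 3 in each of the 4 comparisons, with medians of 2.00, 2.48, 4.91 and 4.31. AIP1 (UP12_3728) rose most, by 4.86 ± 0.44 in B47 leaves and 4.79 ± 0.44 in B128 leaves, and in roots by 6.40 ± 0.44 and 6.97 ± 0.44. In well-watered B47 roots its mean log2 intensity was 5.70 ± 1.17 (SD, n = 3), a wide spread at a dim reading. The second AIP1 unigene (UP12_14919) rose by 1.23, 1.32, 1.96 and 1.57. Highly ABA-induced PP2C 3 (UP12_12928) rose by 2.00, 2.48, 4.91 and 4.31.

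One SnRK2 kinase was followed, SRK2C (UP12_11396), a member of the family that clade A phosphatases restrain. It rose in B128 leaves by 1.56 ± 0.29 (limma, adjusted p = 2.9e-04) and stood 0.59 ± 0.29 higher in drought-stressed B47 leaves (limma, adjusted p = 0.11). In B47 roots it fell by 3.23 and in B128 roots by 1.17, with a standard error of 0.29.

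Downstream, 8 unigenes known as ABA-induced in Arabidopsis were followed. Of these, 7 rose in the leaves of each line and 6 in the roots of each line, and the medians were 2.51, 2.61, 2.85 and 2.91. ATHB-12 (UP12_21526), a homeodomain-leucine zipper factor that in Arabidopsis raises transcripts of clade A phosphatases, had the highest mean change of the list and rose by 5.65 ± 0.37, 5.82 ± 0.37, 8.50 ± 0.37 and 8.05 ± 0.37. An ABA- and drought-induced RING-DUF1117 ligase (UP12_7254) went against its name in 3 comparisons. It fell by 2.53 in B47 leaves, and in roots it fell by 1.98 (B47) and fell by 1.78 (B128), while it rose by 1.61 in B128 leaves. Its line by drought interaction in leaves was 4.14 ± 0.30 and was called (limma, adjusted p = 2.9e-08).

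**Figure D5:**
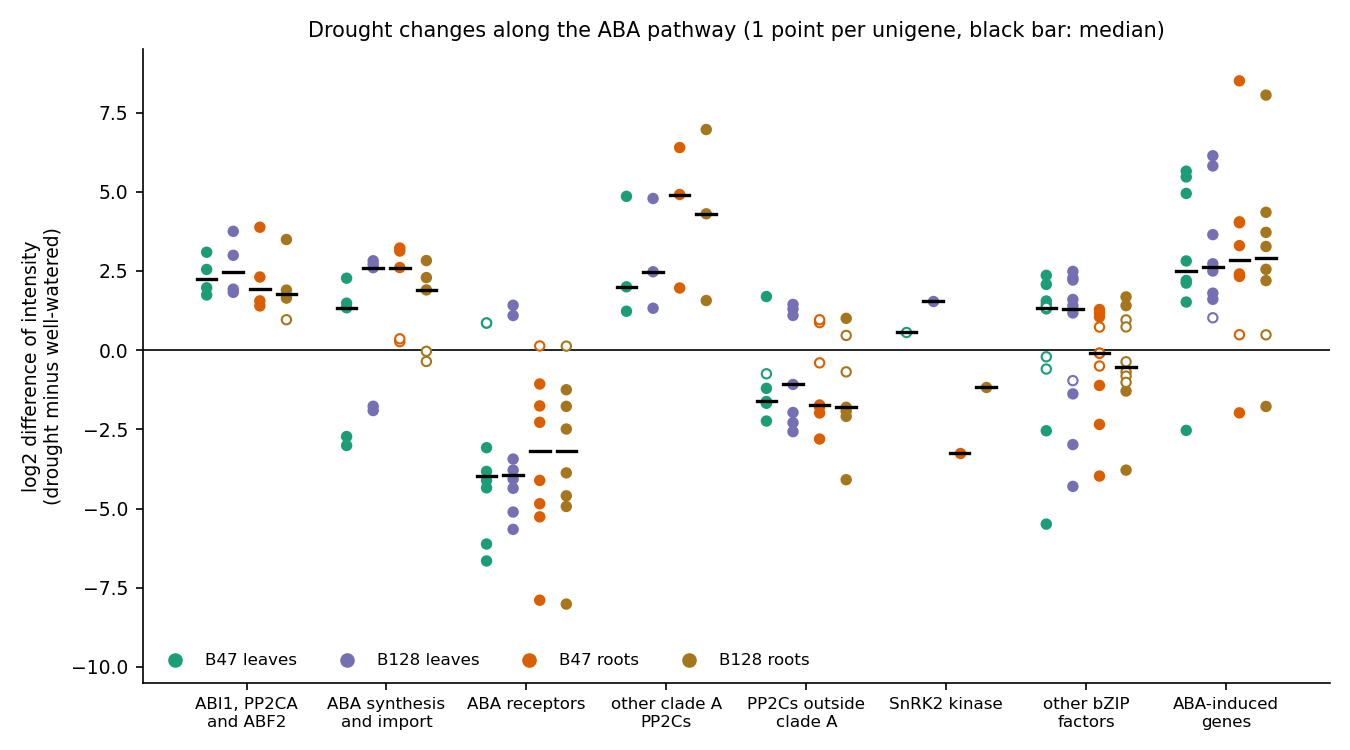
Log2 difference of intensity between drought-stressed and well-watered plants for ABI1, PP2CA and both ABF2 unigenes and for 7 lists of ABA pathway unigenes, in each line and organ (1 point per unigene, filled where both thresholds were passed; black bar, median). The receptors lie mostly below 0, with medians of -3.97 to -3.18, while the clade A phosphatases lie above it in all 4 comparisons.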

How the data were processed

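The deposited values are normalized intensities on a linear scale, from 4.52 to 60814, for 29471 unigenes and 8 yeast control entries. The authors quantile-normalized the probe intensities between arrays and used RMA to give each unigene 1 value; a shift common to most transcripts would be removed. No probe values or detection calls were used, and the number of arrays limits the precision.

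Intensities were log2-transformed with no pseudocount and fitted in limma 3.58.1 (R 4.3.3) with 1 mean for each of 8 groups over 24 arrays (16 residual and 2.88 prior degrees of freedom), without the yeast entries. Of the 17 comparisons, each was adjusted by Benjamini-Hochberg over all unigenes and called where the fold change reached 2 and the FDR did not exceed 0.01, thresholds the study states while naming no test. P-values measure the spread between these arrays.

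The unigenes, the lists and the alternatives were chosen with earlier results of these data known. Named are the 4 unigenes, the 3 most like each, and of each list the members with the largest rise and fall by mean drought change (all where a list has 3 or fewer); other names were chosen after their values were seen. On data simulated for drought in B47 leaves over 29471 unigenes, 73% of 100 changes of 1.5 on the log2 scale and 97% of 100 changes of 3 were recovered, 0 with the wrong sign. All other unigenes had the same mean in every group there, with independent normal noise. Far fewer unigenes changed than under drought, so these rates do not give the power of the real comparison. Names come from the study's tables, of which 2206 unigenes carried an annotation. Sequences of the unigenes and probes were not used here. Plots were drawn in Python 3.11.15 with matplotlib 3.10.9.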

Additional observations from a re-analysis of the deposited data

Results flagged for a closer look

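The response of ABF2 (UP12_26761) to drought differed between the organs of B128, since the leaf response exceeded the root response by 2.11 on the log2 scale (95% confidence interval 1.43 to 2.79, limma's test of the interaction, adjusted p = 7.8e-05). The 3 leaf arrays went from 18.8 to 27.1 in well-watered plants to 268 to 353 under drought, and the 3 root arrays from 28.5 to 41.2 to 81.3 to 116. Leaving out single arrays gave 1.93 to 2.24, all of them called, and adding 50 to every intensity gave 1.45. The name of this unigene came from its listing in B128 leaves, so the leaf side of this difference was not independent of that choice.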

How the results depend on the processing

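All 16 drought changes of the 4 unigenes kept their direction in the main model and under each of the 15 other settings and the leave-one-out fits that could give them. Calls depended on the setting near the thresholds. With array weights 1 of the 4 unigenes was called for line by drought in leaves, and 0 for leaf against root in drought-stressed B47 plants; an FDR of 0.05 also gave 1 for line by drought in leaves. With 50 added to the intensities 0 were called for leaf against root in drought-stressed B47 plants. Leaving out the dimmest 25% of unigenes, which removes UP12_26761, gave 0 for organ by drought in B128, 0 for leaf against root in drought-stressed B47 plants and 1 in drought-stressed B128 plants. Equal yeast control entries on every array gave 1 for organ by drought in B47, 2 for organ by drought in B128 and 2 for leaf against root in drought-stressed B47 plants; this scaling moved the median of all unigenes by 0.32 in drought-stressed against well-watered B47 leaves, by 0.04 in B128 leaves, by -0.31 in B47 roots and by -0.40 in B128 roots. Testing against a fold change of 2 in limma (treat) gave 3 of 4 in B47 leaves under drought, where UP12_12562 was lost, 2 in B47 roots, where both ABF2 unigenes were lost, 2 in B128 roots, where UP12_26761 was lost, and 0 for organ by drought in B128 and for leaf against root under drought in B47 and in B128. Leaving out single arrays moved the number called between 0 and 1 for B128 against B47 in well-watered leaves, for organ by drought in B47 and for leaf against root in drought-stressed B47 plants. Where it left a group with 2 arrays, the spread came from all groups.

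With the replicate number as a replicate block the 4 unigenes gave 4, 4, 4 and 3 calls in the drought comparisons of B47 leaves, B128 leaves, B47 roots and B128 roots, as without it, and no other call on them changed. Same-numbered arrays were not shown to be pairs, and 3 arrays per group cannot settle it. Deviations of same-numbered drought-stressed and well-watered arrays had an r of -0.40 to 0.12, and 5 of 12 correlated best with their own number. These included all 3 arrays of drought-stressed B128 leaves, at 0.07 to 0.12. For leaf and root arrays r was -0.16 to 0.17, and 1 of 12 correlated best with its own number. With the block 4677, 4267, 6589 and 6414 of all unigenes were called, against 4729, 4320, 6633 and 6406 without it. The background moved more: testing against a fold change of 2 called 1216, 1277, 1947 and 1790 of all unigenes in those comparisons, and the count for line by drought ranged over the other settings from 184 to 1486 in leaves (714 in the main model) and from 12 to 1748 in roots (94), the highest with array weights.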

Other observations

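Phosphatases 2C outside clade A lie outside the core ABA pathway of Arabidopsis. Of 7 such unigenes 1 rose and 5 fell in B47 leaves, 3 rose and 4 fell in B128 leaves, 0 rose and 4 fell in B47 roots, and 1 rose and 4 fell in B128 roots, with medians of -1.62, -1.08, -1.73 and -1.80. PP2C 29 (UP12_8272) had the highest mean change and rose by 1.69 ± 0.18 in B47 leaves and 1.44 ± 0.18 in B128 leaves. PP2C 73 (UP12_1673) changed by -2.24 and -2.57 in the leaves of B47 and B128, and by -2.80 and -4.09 in their roots. Other bZIP factors were mixed: of 10 unigenes 4 rose and 2 fell in B47 leaves, 6 rose and 3 fell in B128 leaves, 3 rose and 3 fell in B47 roots, and 2 rose and 2 fell in B128 roots, with medians of 1.33, 1.29, -0.10 and -0.53. GBF6 (UP12_9439) rose by 2.36, 2.28, 1.18 and 1.68, and bZIP42 (UP12_1535) changed by -5.49 and -4.30 in the leaves of B47 and B128 and by -1.11 in B47 roots.

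Within the groups, UP12_12562 was high or low on much the same arrays as PP2CA and, less closely, ABI1. In drought-stressed leaves replicate 2 was the highest array for all 4 unigenes in both lines, and in B128 replicate 1 was the lowest for all 4. The 4 also shared their highest array in well-watered B128 leaves and B47 roots. They did not share it in well-watered B47 leaves and B128 roots, or in drought-stressed roots of either line. The share of all unigenes that were highest on those arrays was not counted. Over the deviations of the 24 arrays from their group means, Pearson's r was 0.757 between PP2CA (UP12_1741) and UP12_12562, higher than that of PP2CA with all but 0.132% of unigenes, and 0.627 between ABI1 (UP12_8966) and UP12_12562, where 2.25% of unigenes were higher. Between ABI1 and PP2CA r was 0.375, where 14.5% of unigenes were higher with ABI1. UP12_26761 had an r of 0.171 to 0.276 with the other three, and 22.7% to 31.7% of unigenes were higher, so it did not stand apart from other unigenes. The arrays share labelling and hybridization, and these values are descriptions with no test.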
